A study of Mus musculus with 6 samples.

Results

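Ly6a, Ly6c1, Ly6c2, Ly6e and Lypd2, 5 genes of the Ly6 family of small surface proteins, were followed through single-cell RNA sequencing of mouse dorsal skin. They are 5 of the 32285 genes counted, taken by symbol and chosen by measured values: Ly6a and Ly6c1 had stood out between hair cycle stages in lymphatic endothelial cells (ECs) and Lypd2 between genotypes in perineurial cells. Those contrasts, and the levels across cell types, are therefore described below without a test. Cells that carried the tdTomato label after recombination by Cdh5-CreERT2, a tamoxifen-activated Cre driven by the VE-cadherin promoter, were sorted and sequenced from the 3′ end. Each of 3 groups had 2 libraries, S1 and S2, and all mice received tamoxifen (200 µg/g) at postnatal day 17. The WT telogen group (hair follicles at rest, postnatal day 20) and the WT anagen group (growing follicles, postnatal day 32) had the genotype tdTomato;Cdh5-CreERT2;Krt14-H2BGFP on the strain C57BL/6;CD1, the last allele marking keratinocyte nuclei. The Alk1 KO telogen group (postnatal day 25) had the genotype Alk1 flox/flox;tdTomato;Cdh5-CreERT2 on the strain C57BL/6. Genotype, strain and age thus differ together between the Alk1 KO and WT telogen libraries, and their parts in any difference cannot be told apart. Per the study's methods, 2 mice were used for each stage and genotype, so S1 and S2 are taken here as separate mice and the p-values rest on the spread between 2 mice per group.

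Ly6 proteins share a fold of 3 loops held by disulphide bonds, and most are tethered to the outer membrane by a glycolipid anchor. Ly6a, better known as Sca-1, marks many stem and progenitor cells and also blood vessel endothelium, and its level is known to differ between mouse strains. Ly6c1 is carried by endothelium, Ly6c2 is the Ly6C antigen of inflammatory monocytes, and Ly6a and Ly6e are both induced by interferons. Less is known of Lypd2.

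All 5 genes lie within 380 kb of chromosome 15 (build GRCm38). Lypd2 is at chr15:74732247-74734329 on the minus strand, Ly6e at chr15:74955051-74959905 on the plus strand, Ly6a at chr15:74994877-74998031, Ly6c1 at chr15:75044018-75048830 and Ly6c2 at chr15:75108158-75111970, the last 3 on the minus strand. Ly6c1 and Ly6c2 are near-identical copies: 384 of 393 aligned coding bases (97.7%) and 98.2% of the last 400 transcript bases were the same, and 23.4% of the 50-base windows in that end of Ly6c1 also occurred in Ly6c2. The last 120 coding bases of each, from exon 4 of 4, are printed because reads of the 3′ assay fall near them and only 2 bases, in capitals, tell the copies apart there.
Ly6c1, chr15:75045405-75045524: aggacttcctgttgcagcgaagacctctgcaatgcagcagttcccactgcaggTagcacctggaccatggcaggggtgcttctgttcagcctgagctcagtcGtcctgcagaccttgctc
Ly6c2, chr15:75108546-75108665: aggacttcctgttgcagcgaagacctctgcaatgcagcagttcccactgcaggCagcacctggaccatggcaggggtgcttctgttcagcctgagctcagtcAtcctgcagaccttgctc
A read without such a base cannot be placed on 1 copy, and the counting keeps only reads assigned to 1 gene, so the split between Ly6c1 and Ly6c2 is less certain than their sum. Ly6a shared less with its neighbours, 86.3% of aligned coding bases with Ly6i, 83.7% with Ly6c1 and 59.9% with Ly6e.

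The upstream regions of the Ly6c copies have drifted further than their coding parts. Over the 250 bases before and the first 50 bases of each gene (RefSeq, GRCm38.p6), 208 of 266 aligned bases (78.2%) were the same. They are printed because the copies were counted in different cells, with matches to AGGAAG, a core bound by ETS factors, in capitals.
Ly6c1, chr15:75048788-75049087: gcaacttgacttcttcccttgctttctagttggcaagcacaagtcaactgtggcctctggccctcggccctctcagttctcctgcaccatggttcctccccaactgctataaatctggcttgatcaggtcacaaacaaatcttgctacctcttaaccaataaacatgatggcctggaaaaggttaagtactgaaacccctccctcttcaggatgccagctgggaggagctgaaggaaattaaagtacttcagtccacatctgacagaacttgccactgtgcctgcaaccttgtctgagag
Ly6c2, chr15:75111922-75112221: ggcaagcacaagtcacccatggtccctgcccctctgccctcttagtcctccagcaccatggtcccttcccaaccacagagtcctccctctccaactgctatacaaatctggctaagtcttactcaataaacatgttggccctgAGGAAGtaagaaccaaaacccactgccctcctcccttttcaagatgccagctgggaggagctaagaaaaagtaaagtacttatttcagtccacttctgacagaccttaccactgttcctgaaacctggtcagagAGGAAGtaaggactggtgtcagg
AGGAAG was searched on both strands and was found at 2 places in the Ly6c2 window, 107 bases before and 27 bases after the start, and at none in the Ly6c1 window. It occurs in 35.4% of 32851 such windows of the genome. Each of the 2 genes had 2 such windows listed, and only the first of each was aligned, printed and searched. The letters TTCNNNGAA (a STAT site, 8.30% of windows), the interferon response element ISRE (3.44%) and GGCGCC (a BMP response element, 11.9%) were in neither window.

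The libraries held 10615358 to 43317677 UMIs (unique molecular identifiers, 1 per captured transcript). Cells with 200 to 5000 genes and under 10% mitochondrial UMIs were kept, 1713 to 5106 per library, and any 2 libraries shared 1 to 8 cell barcodes. Acvrl1, the gene of Alk1, had 214 and 189 CPM (counts scaled to 1000000 UMIs) in blood ECs of the WT telogen libraries, 166 and 176 CPM in WT anagen, and 173 and 165 CPM in Alk1 KO. The deleted exons are not given in the sources used here, so these 3′ counts need not report the deletion, and the genotype field of the Alk1 KO samples reads wild type although their titles and descriptions name the knockout. Populations were named from marker genes and every name means a likeness: artery-like, vein-like, 2 capillary populations (Cap-Kdr-like and Cap-Rgcc-like), collecting and capillary lymphatics (Lymph-Col-like and Lymph-Cap-like), perineurial-like, pericyte-like, fibroblast-like, Schwann-like and immune populations. Cdh5, which drives the label, was at 449.5 CPM or more in the 4 named blood EC populations but at 0 to 20.2 CPM in macrophage-like cells. Perineurial-like cells had 180 to 287 CPM of Cdh5 and at most 12.9 CPM of the endothelial gene Pecam1.

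Ly6a and Ly6c1 were high in blood ECs and low in lymphatic ECs, and Ly6e was broad. Ly6c2 was highest in monocyte-like cells at telogen, and Lypd2 belonged to perineurial-like cells in the WT libraries. Levels are given as CPM of UMIs summed per library and population, in the order S1 and S2. Ly6a was at 1768 and 1711 CPM in artery-like cells at telogen, 1577 and 1600 CPM in Cap-Kdr-like cells, 1486 and 1705 CPM in Cap-Rgcc-like cells and 797 and 726 CPM in vein-like cells. Its levels in the first 3 of these overlapped or lay close together, and vein-like cells were below them in both libraries. Fibroblast-like cells, at 1411 and 1705 CPM, were level with capillaries, and Sca-1 is a known marker of mesenchymal progenitors. Pericyte-like cells, at 760 and 673 CPM, overlapped with vein-like cells. In lymphatic ECs Ly6a was nearly silent at telogen, with 4.15 and 4.33 CPM in Lymph-Col-like and 2.31 and 5.60 CPM in Lymph-Cap-like cells.

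**Figure D1:**
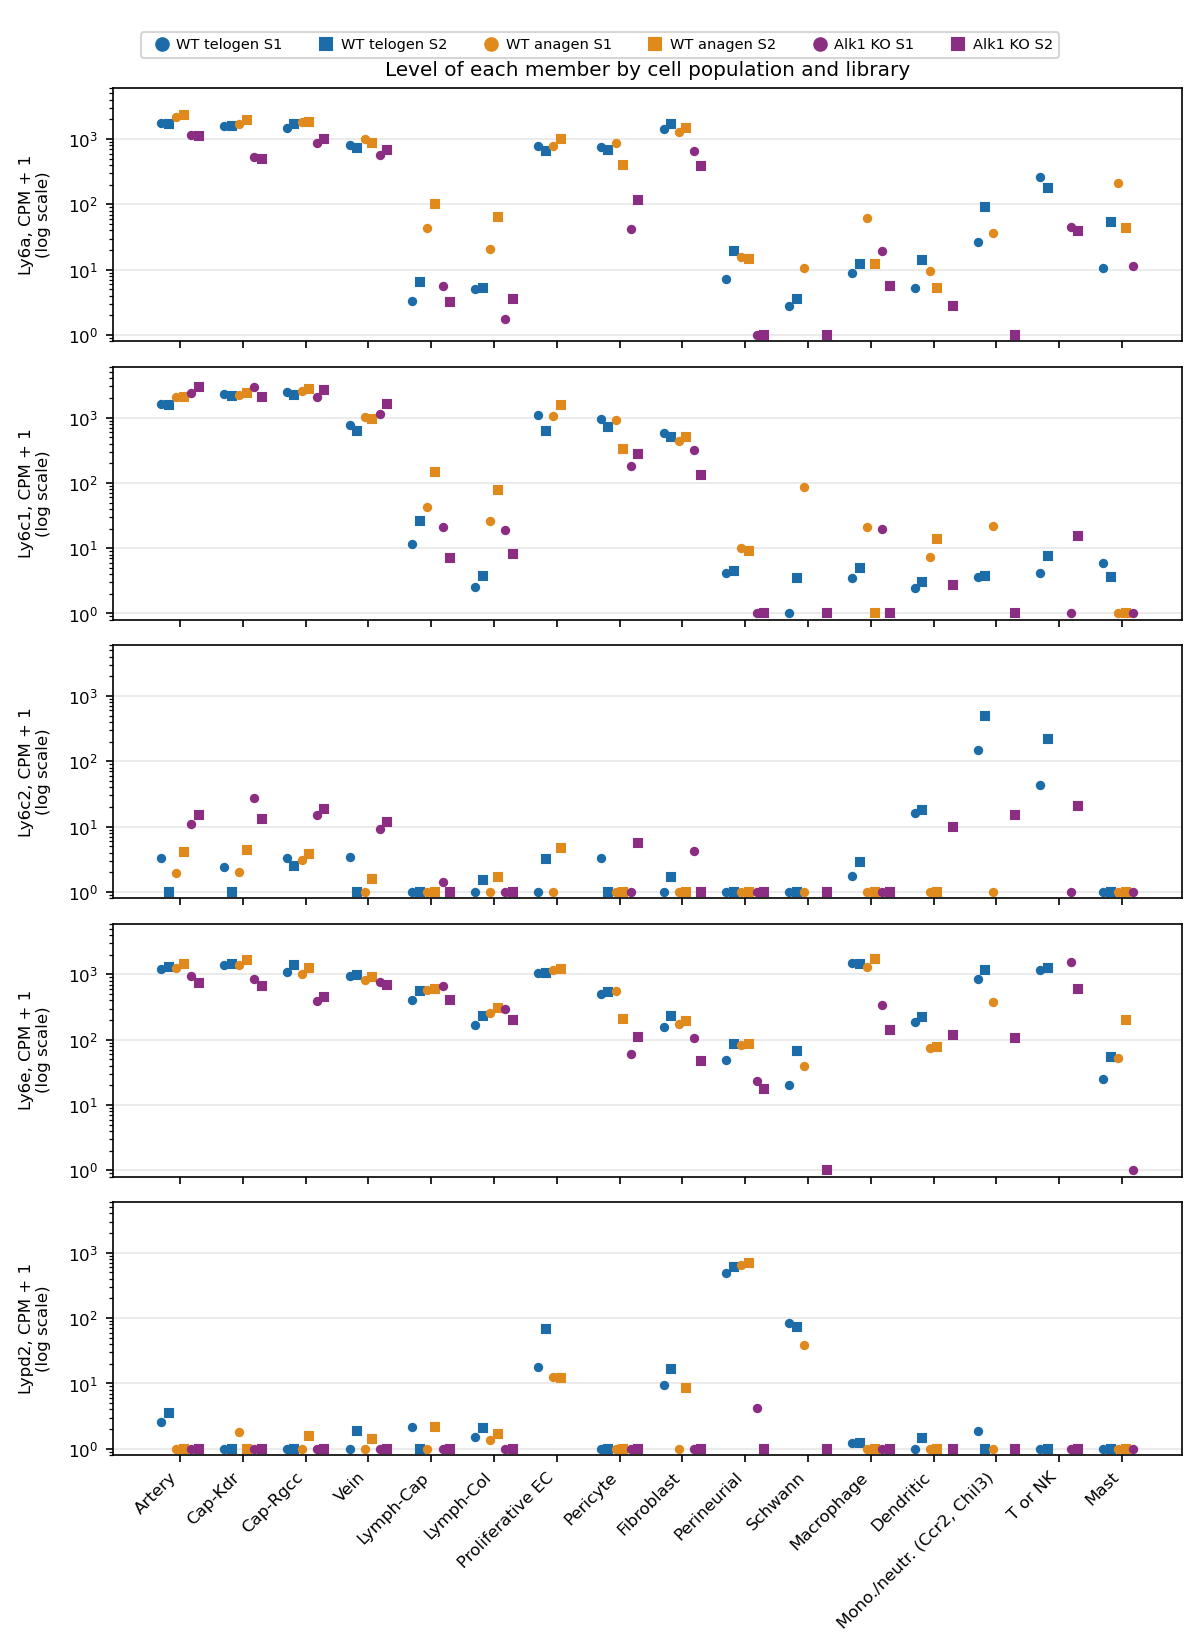
Level (CPM plus 1, log axis) of each member, 1 panel per gene, in populations with at least 10 cells in the library. Each point is 1 library (circle S1, square S2; blue WT telogen, orange WT anagen, purple Alk1 KO). Ly6a and Ly6c1 are each high in blood ECs and low in lymphatic ECs, Ly6e is present nearly throughout, and the Lypd2 points of the Alk1 KO libraries lie at the bottom in perineurial-like cells.

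Ly6c1 followed a similar order with capillaries on top. At telogen it was at 2314 and 2145 CPM in Cap-Kdr-like, 2439 and 2199 CPM in Cap-Rgcc-like, 1604 and 1544 CPM in artery-like and 778 and 624 CPM in vein-like cells. The capillary populations overlapped with each other, and both lay above artery-like cells. Lymph-Col-like cells had 1.56 and 2.71 CPM and Lymph-Cap-like cells 10.4 and 25.2 CPM. Outside the endothelium, Ly6c1 was at 962 and 719 CPM in pericyte-like and 582 and 511 CPM in fibroblast-like cells. The part of endothelial transcripts in these values was not tested.

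Ly6c2 was sparse outside the immune cells. It reached 145 and 493 CPM at telogen in the monocyte- or neutrophil-like cluster led by Ccr2 and Chil3, where 168 of 171 and 1262 of 1269 of the UMIs of both copies were its own (98.2% and 99.4%). In blood ECs of the WT libraries it made up at most 0.132% of that sum. Both are 3′ counts of transcripts of similar length (844 and 822 bases). Reads that fit both copies are not counted, so the shares are approximate. T- or NK-like cells had 42.5 and 218 CPM of Ly6c2 at telogen and dendritic-like cells 14.9 and 17.1 CPM. At anagen the Ccr2 and Chil3 cluster was small, with 0 Ly6c2 UMIs in 22 cells of S1 and 5 in 4 cells of S2. In Alk1 KO it had 0 in 5 cells of S1 and 2 in 11 cells of S2. Dendritic-like cells had 0 Ly6c2 UMIs in 113 and 34 cells at anagen.

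**Figure D2:**
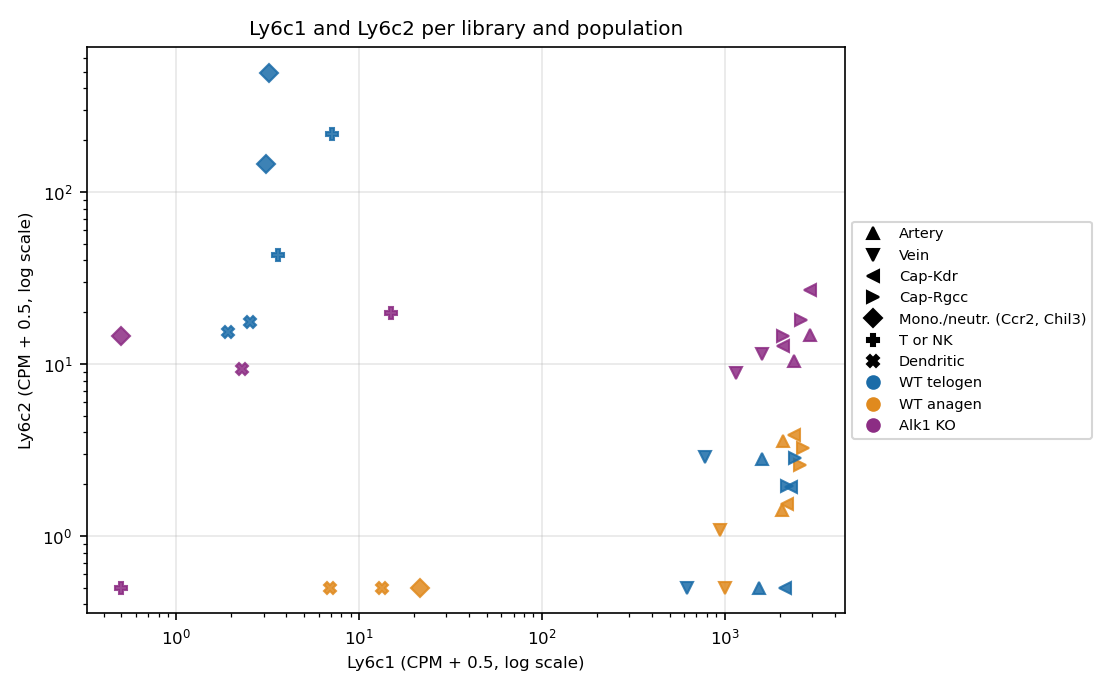
Ly6c1 (x axis) against Ly6c2 (y axis), both in CPM plus 0.5 on log axes, for blood EC and immune populations with at least 10 cells. Each point is 1 library and population (symbol for population, colour for group). Immune populations of WT telogen lie at the upper left and blood ECs at the right, where the Alk1 KO points sit above those of the WT libraries.

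Ly6e had its highest levels in macrophage-like cells (1515 and 1460 CPM at telogen) and in Cap-Kdr-like cells (1403 and 1435 CPM), which lay close together. Artery-like cells had 1195 and 1291 CPM and vein-like cells 934 and 987 CPM. Unlike Ly6a and Ly6c1 it was well measured in lymphatics, at 410 and 559 CPM in Lymph-Cap-like and 167 and 230 CPM in Lymph-Col-like cells. Perineurial-like cells, at 48.0 and 85.8 CPM, were near the low end.

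Lypd2 marked perineurial-like cells, which form the sheath around nerve bundles. It was at 490 and 603 CPM there at telogen and 647 and 701 CPM at anagen. With each cell thinned to 1500 UMIs, 43.3% and 49.0% of perineurial-like cells at telogen had a UMI of Lypd2, and 43.0% and 54.0% at anagen. Without thinning these shares were 74.8%, 77.5%, 69.8% and 72.3%. In blood ECs, which should lack it, at most 0.176% of thinned cells had one in any library. Schwann-like cells had 83.3 and 71.0 CPM at telogen, beside 13228 and 12906 CPM of a list of 10 perineurial marker genes, against 34505 and 37579 CPM of that list in perineurial-like cells themselves. The list is not specific, with 20567 and 23132 CPM in fibroblast-like cells, and the part of carried-over perineurial transcripts was not tested.

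Perineurial-like cells were not uniform for Lypd2. Clustered again, they fell into 8 sub-clusters, besides 2 sub-clusters of 83 cells in all, led by endothelial markers, that were set apart. Sub-cluster 6 was set off by fibroblast markers (Lum, Col1a1 and Col3a1) and sub-cluster 5 was shallow, with a median of 1552 UMIs per cell. In the other 6, Lypd2 over the 4 WT libraries summed ranged from 260 CPM in sub-cluster 3 and 343 CPM in sub-cluster 0, which was led by the chemokine genes Ccl2 and Cxcl1, to 828 CPM or more in sub-clusters 1, 2, 4 and 8. Sub-cluster 6 was at 234 CPM and sub-cluster 5 at 1053 CPM. Among sub-clusters with at least 10 cells per library, the highest Lypd2 level of sub-clusters 0, 3 and 6 in any WT library was 450 CPM and the lowest of the others was 661 CPM. The 5 members and the rest of the family were left out of the genes used for clustering, but other genes of the same cells were used, so the split is a description.

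**Figure D3:**
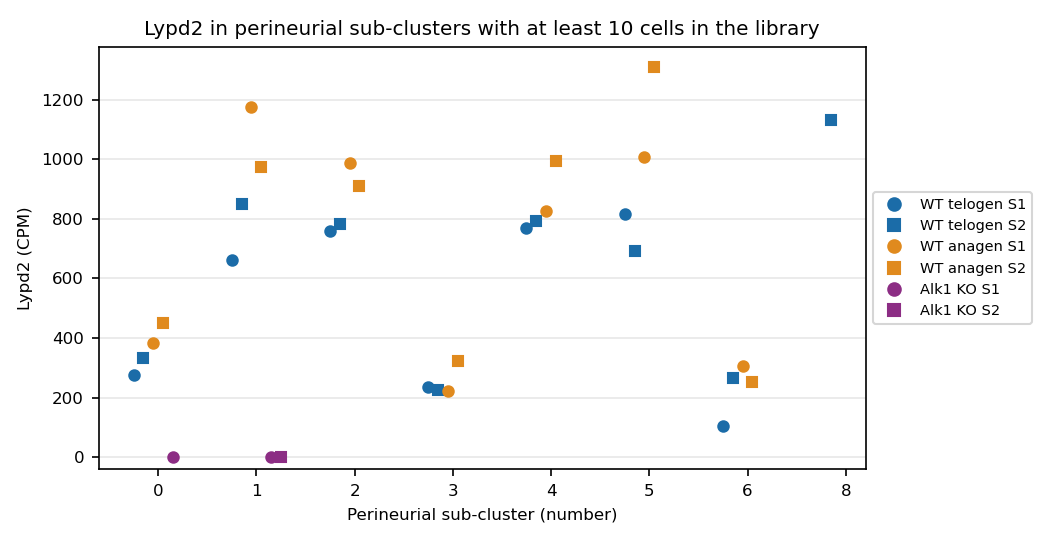
Lypd2 in CPM (y axis) by perineurial-like sub-cluster (x axis, cluster number), 1 point per library with at least 10 cells in the sub-cluster (circle S1, square S2; blue WT telogen, orange WT anagen, purple Alk1 KO). Sub-clusters 0, 3 and 6 lie lower than sub-clusters 1, 2, 4, 5 and 8 in the WT libraries, and the Alk1 KO points in sub-clusters 0 and 1 lie at 0.

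The genes whose levels ran most like each member were sought over 52 WT sums (13 populations in 4 libraries) among 13347 genes, by Pearson correlation of log2(CPM + 1), as a description in which the points share libraries and depth. For Ly6a they were Efhd1 (r = 0.91), Ly6c1 (r = 0.91) and Sparcl1 (r = 0.88), and for Ly6c1 they were Cxcl12 (r = 0.96), Ace (r = 0.95) and Sparcl1 (r = 0.95). Cxcl12, a chemokine, was itself a marker used for capillaries. Lypd2 ran most closely with Slc6a13 (r = 0.97), a GABA transporter, with Sfrp5 (r = 0.96), a secreted Wnt antagonist used here as a perineurial marker, and with Wnt6 (r = 0.95). For Ly6e they were Adgrg1 (r = 0.87), Chst7 (r = 0.85) and Slc12a7 (r = 0.85). Ly6c2 had no close match among these sums, Tm4sf5 (r = 0.67) leading. The Ccr2 and Chil3 cluster and T- or NK-like cells, where Ly6c2 was highest, were not among the 13 populations. Each had under 10 cells in a WT anagen library, so genes that run with Ly6c2 there could not be found.

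The comparison of WT anagen with WT telogen asked how the vessels change as hair follicles enter growth. In blood ECs no difference of Ly6a or Ly6c1 between the stages passed the threshold. Ly6a in artery-like cells went from 1768 and 1711 CPM to 2181 and 2322 CPM, without overlap, but its log2 difference of 0.47 ± 0.11 (SE) gave an adjusted p of 0.094 (edgeR quasi-likelihood test with Benjamini-Hochberg adjustment over all genes of the population). In Cap-Kdr-like, Cap-Rgcc-like and vein-like cells its log2 difference was 0.23, 0.29 and 0.41. Ly6c1 in artery-like cells (log2 0.49, SE 0.11, edgeR adjusted p = 0.085) and in vein-like cells (log2 0.60, SE 0.15, edgeR adjusted p = 0.11) likewise did not pass. Ly6e differed by 0.21 or less in log2 size in each of the 4 blood EC populations. Lypd2 in perineurial-like cells was higher by 0.39 (log2, SE 0.13, edgeR adjusted p = 0.24), and its libraries did not overlap.

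A change was called at an adjusted p under 0.05 with a fold over 1.3. Over the 11 populations whose stage contrast had not served to choose the genes, 55 pairs of member and population gave 32 that passed the filter on low counts, 2 of them only through the group where the gene was high. Of the other 30, 1 was called, against 0.544% of all 91922 gene tests in those populations. At an unadjusted p under 0.05 (edgeR) there were 8 of 30. The share of all genes under that unadjusted p is not given here, and the 0.544% is for adjusted calls. The 8 of 30 thus stand without a background, and no excess is read from them. The call was Ly6a in macrophage-like cells, at 7.91 and 11.1 CPM at telogen and 60.7 and 11.2 CPM at anagen, with a log2 difference of 2.62 ± 0.42 (SE, edgeR adjusted p = 0.0039). The anagen value rested on library S1, and without it the log2 difference was 0.22. In that library the summed level of 13 blood EC marker genes in macrophage-like cells was also highest, at 710 CPM against 187 to 261 CPM in the other WT libraries, and its part in the result was not tested. DESeq2, another count test, called 2 pairs, Ly6c1 in vein-like cells and Ly6e in dendritic-like cells, but not this one.

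In lymphatic ECs, Ly6a and Ly6c1 were higher at anagen. These contrasts served to choose the genes and are given as values. In Lymph-Col-like cells Ly6a went from 4.15 and 4.33 CPM to 19.8 and 63.4 CPM (log2 difference 3.30 ± 0.56, SE) and Ly6c1 from 1.56 and 2.71 CPM to 24.7 and 77.4 CPM (log2 difference 4.58 ± 0.63, SE). In Lymph-Cap-like cells Ly6a went from 2.31 and 5.60 CPM to 42.4 and 99.3 CPM (log2 difference 4.20 ± 0.59, SE) and Ly6c1 from 10.4 and 25.2 CPM to 42.4 and 144 CPM (log2 difference 2.44 ± 0.58, SE). In each case the stages did not overlap, and S2 was the higher anagen library. Of all genes tested, 1.35% were called in Lymph-Col-like and 0.351% in Lymph-Cap-like cells. Ly6e, abundant in the same cells, differed less, by 0.63 ± 0.18 and 0.35 ± 0.16 (log2, SE).

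Much of the lymphatic signal sat in few cells. In Lymph-Col-like cells of anagen S2, 8 of 392 cells had 3 or more UMIs of Ly6a and held 86.3% of its 95 UMIs, and in anagen S1 4 of 544 cells held 54.4% of 57 UMIs. Ly6c1 was as concentrated in S2, where 8 cells held 87.9% of its 116 UMIs, but in S1 its 71 UMIs were spread over 44 cells and 5 cells with 3 or more held 38.0%. The cells with 3 or more UMIs of Ly6a also carried more of the 13 blood EC markers, 3398 CPM in S2 and 1827 CPM in S1, against 508 and 361 CPM in cells without Ly6a. Over whole libraries the blood EC list in Lymph-Col-like cells was 321 and 328 CPM at telogen and 399 and 636 CPM at anagen, against 6250 to 7416 CPM in blood ECs. Per 100 UMIs of that list, Lymph-Col-like cells had 0.485 and 0.826 Ly6c1 UMIs in the WT telogen libraries and 6.17 and 12.2 in the WT anagen libraries, against 22.5 to 38.0 in blood ECs. After removal of the 5% of cells outside the blood ECs that were richest in the list, in each library and population (an alternative chosen after seeing the data), the log2 difference in Lymph-Col-like cells was 1.93 for Ly6a and 3.34 for Ly6c1, and that of Ly6a in Lymph-Cap-like cells was 4.59. Over all alternatives tried the Lymph-Col-like values lay between 1.84 and 5.21.

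**Figure D4:**
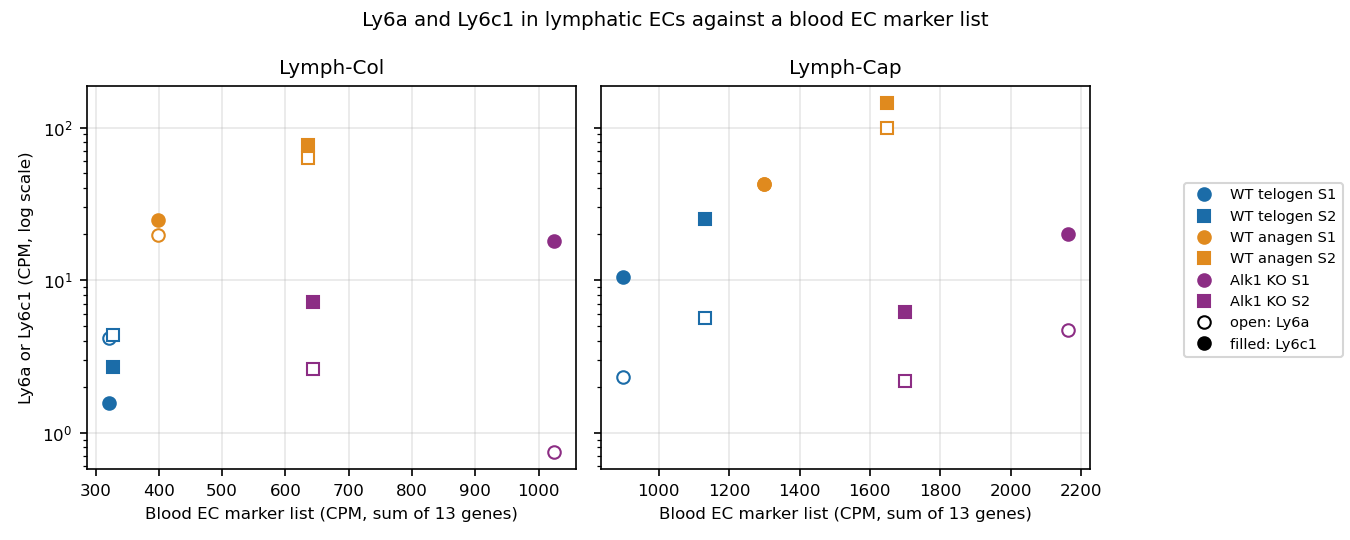
Ly6a (open) and Ly6c1 (filled) in CPM on a log axis, against the summed level of 13 blood EC marker genes (x axis, CPM), in Lymph-Col-like (left) and Lymph-Cap-like cells (right). Each point is 1 library (circle S1, square S2; blue WT telogen, orange WT anagen, purple Alk1 KO), and in Lymph-Cap-like cells of anagen S1 both genes fall on the same point. Anagen points lie above telogen points, and the Alk1 KO libraries have the most of the list in Lymph-Col-like cells with less Ly6a than either WT group.

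The comparison of Alk1 KO with WT telogen asked how loss of Alk1, a BMP receptor of endothelium, changes the labelled cells. Ly6a and Ly6e were lower in the Alk1 KO libraries, Ly6c1 was higher in artery-like and vein-like cells, and Lypd2 was all but gone. Outside the perineurial-like cells, 30 pairs of member and population passed the filter on low counts, 4 of them only through the group where the gene was high, and those 4 are given below as values with no test. Of the other 26, 15 were called, 2 higher and 13 lower, against 19.0% of all 81321 gene tests in the same 10 populations (8.64% higher and 10.3% lower). That percentage of all genes is high, and strain and age differ along with the genotype.

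Ly6a was lower in 5 of 8 tested populations and higher in none. In Cap-Kdr-like cells it was at 529 and 487 CPM in Alk1 KO against 1577 and 1600 CPM in WT telogen, a log2 difference of -1.83 ± 0.20 (SE, edgeR adjusted p = 3.1e-05). The share of thinned Cap-Kdr-like cells with a UMI of Ly6a was 38.8% and 34.1% in Alk1 KO against 84.7% and 86.3%, and without thinning 51.7% and 34.7% against 94.3% and 94.4%, with at most 1.03% of thinned Lymph-Col-like cells of these libraries as a background. The fall was smaller in artery-like cells, from 1768 and 1711 to 1144 and 1127 CPM (log2 -0.61, SE 0.14, edgeR adjusted p = 0.0080), and in Cap-Rgcc-like cells, from 1486 and 1705 to 883 and 1005 CPM (log2 -0.74, SE 0.21, edgeR adjusted p = 0.013). The Cap-Rgcc-like call was lost without WT telogen S1 (adjusted p = 0.097, edgeR) or S2 (adjusted p = 0.27, edgeR). Vein-like cells, at 561 and 678 CPM against 797 and 726 CPM, missed the threshold (log2 -0.32, SE 0.17, edgeR adjusted p = 0.19). Whether the capillary and vein differences differ from each other was not tested.

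The change of Ly6a was not limited to endothelium. Fibroblast-like cells had 657 and 389 CPM in Alk1 KO against 1411 and 1705 CPM (log2 -1.89, SE 0.30, edgeR adjusted p = 0.0021), from 36 and 61 Alk1 KO cells. Cdh5 was at 9.71 and 0 CPM in them, against 21.2 and 38.8 CPM at telogen. Pericyte-like cells had 40.5 and 117 CPM against 760 and 673 CPM (log2 -3.38, SE 0.42, edgeR adjusted p = 0.0094). In the pericyte-like cells the blood EC list fell as well, to 389 and 1524 CPM from 3003 and 2447 CPM, and at telogen 98.4% and 98.0% of the Ly6a UMIs sat in cells with 3 or more of them, whose blood EC list was 3569 and 3687 CPM against 480 and 313 CPM in cells with none. The part of endothelial transcripts in the pericyte-like values was not tested, and with the richest 5% of cells removed the adjusted p was 0.052 (edgeR).

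Ly6c1 went the other way in part of the vasculature. Artery-like cells rose from 1604 and 1544 CPM to 2397 and 2925 CPM (log2 0.76, SE 0.14, edgeR adjusted p = 0.0028), and vein-like cells from 778 and 624 CPM to 1149 and 1611 CPM (log2 0.95, SE 0.19, edgeR adjusted p = 0.0028). Both capillary populations overlapped with WT telogen, with log2 differences of -0.02 (95% interval -0.42 to 0.39) in Cap-Kdr-like and 0.03 (95% interval -0.37 to 0.43) in Cap-Rgcc-like cells. Ly6c1 was lower in fibroblast-like cells (314 and 130 CPM against 582 and 511 CPM, log2 -1.64, SE 0.38, edgeR adjusted p = 0.011). It was also lower in pericyte-like cells (180 and 280 CPM against 962 and 719 CPM, log2 -2.0, SE 0.31, edgeR adjusted p = 0.018), where the blood EC list fell as described for Ly6a, and with the richest 5% of cells removed the adjusted p was 0.15 (edgeR). In Lymph-Col-like cells 18.0 and 7.16 CPM stood against 1.56 and 2.71 CPM, from 35 against 8 UMIs and beside 1024 and 644 CPM of the blood EC list against 321 and 328 CPM. Ly6c1 passed the filter there only through the Alk1 KO libraries, so no test is given and the part of blood EC transcripts was not tested.

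Ly6c2 was counted more in blood ECs of Alk1 KO, at low counts and with no test, since it passed the filter only through those libraries where it passed at all. Artery-like cells had 28 UMIs in the Alk1 KO libraries against 3 in WT telogen, a ratio per UMI sequenced of 10.1 (95% counting interval 3.13 to 52.0), and Cap-Rgcc-like cells had 24 against 3, a ratio of 8.0 (2.43 to 41.5). Cap-Kdr-like cells had 18 UMIs against 1 and vein-like cells 21 against 3. Over all blood ECs it was at 12.4 and 13.7 CPM against 2.18 and 0.269 CPM in WT telogen and 1.14 and 2.20 CPM in WT anagen. It made up 0.631% and 0.572% of the UMIs of both Ly6c copies in blood ECs of Alk1 KO against 0.132% and 0.0179% in WT telogen. In lymphatic ECs of the same libraries Ly6c2 was at 0.273 and 0 CPM. How many of these UMIs came from Ly6c1 transcripts was not tested.

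Ly6e fell in 6 of 10 populations. The largest fall among blood ECs was in Cap-Rgcc-like cells, from 1106 and 1372 CPM to 397 and 456 CPM (log2 -1.52, SE 0.22, edgeR adjusted p = 2.7e-05). Cap-Kdr-like cells went from 1403 and 1435 CPM to 850 and 658 CPM (log2 -1.10, SE 0.20, edgeR adjusted p = 0.0013) and artery-like cells from 1195 and 1291 CPM to 931 and 745 CPM (log2 -0.56, SE 0.16, edgeR adjusted p = 0.025). The artery-like call was lost without WT telogen S2 (adjusted p = 0.092, edgeR) or Alk1 KO S2 (adjusted p = 0.099, edgeR). Macrophage-like cells, not endothelial and nearly free of Cdh5, went from 1515 and 1460 CPM to 340 and 139 CPM (log2 -2.66, SE 0.34, edgeR adjusted p = 0.00073), from 26 and 35 Alk1 KO cells. Fibroblast-like cells (log2 -1.75, SE 0.37) and pericyte-like cells (log2 -2.80, SE 0.32) were also lower, the latter beside the lower blood EC list given for Ly6a, and with the richest 5% of cells removed the pericyte-like difference was -2.97 (edgeR adjusted p = 0.032). T- or NK-like cells overlapped between groups, at 1563 and 590 CPM against 1165 and 1266 CPM.

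Lymphatic ECs did not share the fall of Ly6e. Lymph-Cap-like cells had 654 and 399 CPM in Alk1 KO against 410 and 559 CPM (log2 0.07, 95% interval -0.37 to 0.51), and Lymph-Col-like cells 294 and 196 CPM against 167 and 230 CPM (log2 0.23, 95% interval -0.18 to 0.64). With the 2 lymphatic and the 4 blood EC populations each summed, lymphatics had 523 and 326 CPM against 242 and 322 CPM in WT telogen, and blood ECs 743 and 657 CPM against 1133 and 1242 CPM. The Alk1 KO difference of Ly6e was higher in lymphatic than in blood ECs by 1.29 ± 0.16 (log2, SE, edgeR interaction term, adjusted p = 2.4e-05), and by 1.04 to 1.53 under every alternative tried. Among Ly6a, Ly6c1 and Ly6e, Ly6e alone was called for this interaction, beside 19.4% of all 12133 genes. Ly6a was at 0.11 (SE 0.40) and Ly6c1 at 0.42 (SE 0.45). Ly6c2 also passed the filter, with a value of -3.85 (SE 2.59), but is given no test. It was at 12.4 and 13.7 CPM in blood ECs of Alk1 KO and at most 2.18 CPM in the other sums.

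**Figure D5:**
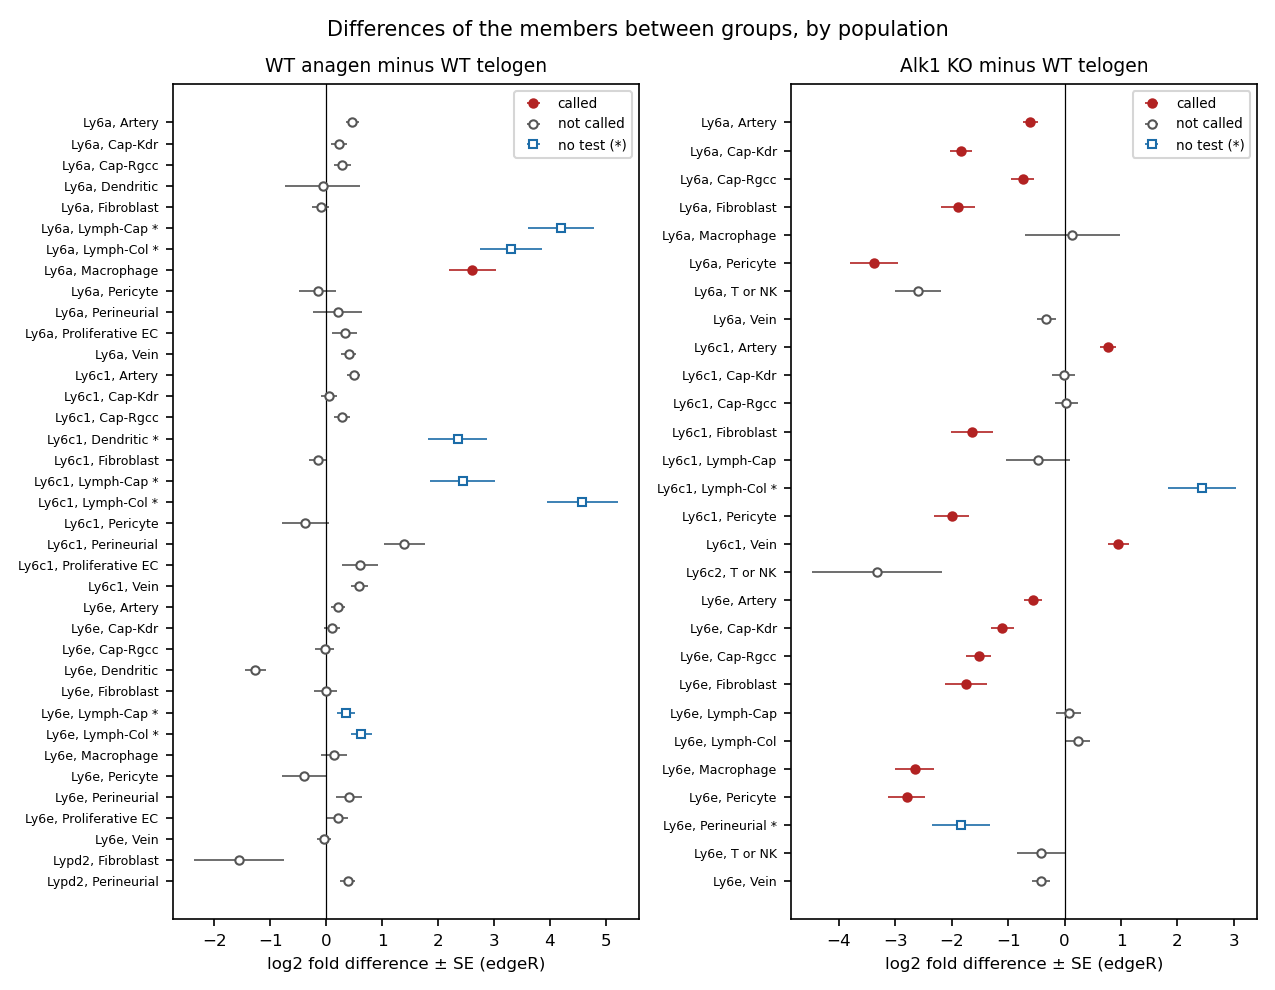
Log2 fold differences (x axis, points with bars of 1 SE, edgeR) of each member and population tested, for WT anagen minus WT telogen (left) and Alk1 KO minus WT telogen (right). Filled red points were called (adjusted p under 0.05 and fold over 1.3), blue squares with an asterisk carry no test because the contrast served to choose the genes or the gene passed the filter through 1 group only, and pairs with 3 or fewer UMIs in a group are left out. Ly6a and Ly6e lie mostly left of 0 on the right panel and Ly6c1 lies on both sides.

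Lypd2 was nearly absent from the Alk1 KO libraries. Perineurial-like cells had 3.16 and 0 CPM against 490 and 603 CPM, which was 1 UMI against 4712, or 275 times more per UMI sequenced in WT telogen (95% counting interval 49.4 to 10876). This contrast served to choose Lypd2 and carries no test, and 22.3% of the 10214 genes tested there were called. None of 74 and 44 thinned Alk1 KO cells had a UMI of Lypd2, which allows a share of cells with a UMI of up to 4.05% and 6.82% (3 counts of the total, counting error only), against 43.3% and 49.0% at telogen, and without thinning 1 of 81 and 0 of 55 cells had one. Of the genes that mark these cells, Sfrp5 was at 1725 and 1967 CPM against 2235 and 2580 CPM in WT telogen, the tight junction gene Cldn1 at 626 and 691 CPM against 726 and 737 CPM, and Igfbp6 at 9928 and 12295 CPM against 10018 and 10845 CPM. Krt19, a keratin, was lower, at 111 and 193 CPM against 642 and 567 CPM, and Apod was higher, at 7910 and 8145 CPM against 1717 and 1494 CPM. Of the rest of the 10-gene list, Mfap5 (1257 and 1144 against 1980 and 2105 CPM), Gsn (6394 and 6211 against 8647 and 10033 CPM) and Ndrg2 (445 and 580 against 652 and 692 CPM) were lower. Klf5 was higher (780 and 950 against 561 and 572 CPM). Dcn was at 6915 and 6714 against 7165 and 7668 CPM, and Slc2a1 at 853 and 641 against 805 and 853 CPM. The part of a change in the make-up of these cells in the Lypd2 difference was not tested. Cdh5 was at 287 and 260 CPM against 180 and 215 CPM. In sub-cluster 1, the only one with at least 10 cells in each of the Alk1 KO libraries, 30 and 27 cells had no UMI, while the WT telogen libraries had 661 and 850 CPM. Fibroblast-like cells had 0 UMIs against 68, which is at least 3.31-fold lower with a floor of 3 counts over the group. No test is given, since Lypd2 passed the filter there only through WT telogen. Sfrp5 and Krt19 also had 0 UMIs there, against 37 and 92 and against 53 and 40, while Slc2a1, Ndrg2, Apod and Dcn were higher. The part of carried-over perineurial transcripts was not tested. Over all kept cells Lypd2 had 1 UMI in the Alk1 KO libraries and 40.1 to 88.8 CPM in the WT libraries. Perineurial-like cells were 81 of 1713 and 55 of 1958 kept cells in Alk1 KO, against 535 of 3171 and 834 of 4692 in WT telogen. Ly6e was also lower in perineurial-like cells, at 22.1 and 16.6 CPM against 48.0 and 85.8 CPM (log2 -1.83, SE 0.51), and Ly6a had 0 UMIs against 112, at least 2.18-fold lower. The Ly6e value rested on 10 UMIs in Alk1 KO. Over the alternatives tried, the log2 difference lay between -2.26 and -0.22 for Ly6e and between -8.24 and -0.097 for Ly6a.

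The wider Ly6 family held few other measured genes. Of 43 genes listed, 42 were in the files, and 16, the members included, reached 10 CPM as a mean in some group and population. Without the members and over 11 populations, 13 tests were called higher and 3 lower of 33 in Alk1 KO (median log2 0.49), beside 8.85% of all gene tests in these populations higher and 10.5% lower. Between the stages 1 of 49 was called over 13 populations, a higher one, beside 0.468% of all gene tests higher and 0.132% lower. Unlike the member counts, these family counts were not screened for genes that passed the filter through 1 group only. Gpihbp1, which carries lipoprotein lipase to the lumen of capillaries, rose in artery-like (log2 2.31, SE 0.17) and vein-like cells (log2 2.37, SE 0.24) and in Lymph-Col-like (log2 3.66, SE 0.38) and Lymph-Cap-like cells (log2 1.67, SE 0.17). In the lymphatic populations the blood EC list was also higher in Alk1 KO, at 1024 and 644 CPM against 321 and 328 CPM in Lymph-Col-like and 2163 and 1701 CPM against 899 and 1131 CPM in Lymph-Cap-like cells, and its part was not tested. Cd59a, an inhibitor of complement, rose in all 4 blood EC populations, by 1.32 (SE 0.19) in vein-like to 2.31 (SE 0.31) in Cap-Rgcc-like cells on the log2 scale. Plaur, the urokinase receptor, rose in Cap-Kdr-like cells (log2 1.91, SE 0.33), and also in Cap-Rgcc-like, vein-like and Lymph-Col-like cells. It fell in fibroblast-like (log2 -1.01, SE 0.32) and pericyte-like cells (log2 -2.23, SE 0.51), the latter beside the lower blood EC list given for Ly6a. Lypd1 fell in fibroblast-like cells (log2 -2.32, SE 0.72), from a mean of at most 10.2 CPM in any group and population. The Alk1 KO difference between lymphatic and blood ECs was 1.90 (SE 0.16) for Gpihbp1 and -1.98 (SE 0.18) for Cd59a, both called. The stage call was Gpihbp1 in macrophage-like cells (log2 3.75, SE 0.68), where the blood EC list was also higher in anagen S1.

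Because Ly6a and Ly6e are interferon-induced genes, 40 other interferon response genes were set beside them. In Alk1 KO 96 of 354 tests over 11 populations were called lower and 21 higher, with a median log2 difference of -0.57, beside 10.5% of all gene tests lower and 8.85% higher. The counts of this list, unlike those of the members, were not screened for genes that passed the filter through 1 group only. How many of the calls rest on such genes is not known. Ifit1, for example, had a log2 difference of -9.15 (SE 3.07) in fibroblast-like cells. The list's part in the lower Ly6a and Ly6e was not tested. Bst2, tetherin, fell in artery-like cells (log2 -1.19, SE 0.17) and pericyte-like cells (log2 -2.69, SE 0.32), the latter beside the lower blood EC list given for Ly6a. Ifi27 fell in Cap-Kdr-like (log2 -1.99, SE 0.27) and Cap-Rgcc-like cells (log2 -1.87, SE 0.28). Rises were called for Rsad2 in vein-like (log2 2.17, SE 0.45) and Cmpk2 in Cap-Rgcc-like cells (log2 1.66, SE 0.45). Cap-Rgcc-like cells were mixed, with 8 higher and 7 lower of 37 and a median of 0.34, as were vein-like cells, with 4 higher and 6 lower of 35 and a median of 0.09. In Lymph-Cap-like cells 15 of 30 were lower and 1 was higher. Between lymphatic and blood ECs, 14 of 40 of these genes had a lower Alk1 KO difference in lymphatics and 3 a higher one, beside 9.87% and 9.58% of all genes. Between the stages, 3 of 427 tests were called, beside 0.468% of all gene tests called higher, all higher at anagen: Rsad2 in artery-like cells (log2 1.20, SE 0.22), and Ifit1 (log2 2.15, SE 0.51) and Ifih1 (log2 2.08, SE 0.34) in macrophage-like cells.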

How the data were processed

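Libraries of 6 samples of sorted tdTomato+ dorsal skin cells (Chromium 3′ v3) were analysed. The deposited UMI counts per gene and cell were made by the authors with Cell Ranger 6.0.1 on mm10; the submitters' notes also name Seurat 4.0. Here, cells with 200 to 5000 genes and under 10% mitochondrial UMIs were kept and clustered with scanpy 1.11.5 (3000 variable genes, 30 components, resolution 0.6), and clusters were named from marker lists. The family and interferon lists, 83 genes with the members among them, were left out of the genes used for clustering, and libraries were aligned by the Harmony method (own Python implementation). Scrublet called under 0.5% of cells in 4 libraries and was not relied on. Counts were summed per library and population with at least 10 cells in each library and tested with edgeR 4.0.16 (filterByExpr, TMM, quasi-likelihood, Benjamini-Hochberg), after tests on simulated data. Shares were computed after thinning to 1500 UMIs. Intervals of UMI ratios (exact, 95%) and limits for a count of 0 (3 counts of the total) cover counting error only. The 95% intervals of log2 differences were computed from the SE of the edgeR fit. All 5 members are named; other genes follow the rule of called or at least 10 CPM (family), up to 3 called with the largest change per comparison (interferon list) and the 3 most alike. Members and lists were chosen with earlier results of these data known. The alternatives were DESeq2 1.42.0, no filter on low counts, all 6 libraries in one fit, the replicate number as a term, each library left out, stricter cells, removal of the highest Scrublet scores, and cells assigned by marker scores. Sequences came from GENCODE and RefSeq on GRCm38, where 2 of the 5 members had a promoter entry.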

Additional observations from a re-analysis of the deposited data

Results flagged for a closer look

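The Alk1 KO difference of Ly6e was higher in lymphatic than in blood ECs by 1.29 (log2, SE 0.16, edgeR interaction term with library as a block, adjusted p = 2.4e-05), a difference between groups of cells tested directly. Ly6e was at 523 and 326 CPM in lymphatic ECs of Alk1 KO against 242 and 322 CPM in WT telogen, and at 743 and 657 CPM in blood ECs against 1133 and 1242 CPM. Strain and age differ along with the genotype, so their parts cannot be told apart.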

How the results depend on the processing

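Of the differences that passed the threshold, none changed sign under any alternative. Their values under the alternatives (contrasts that served to choose the genes left out) stayed past the threshold in 197 cases for Alk1 KO and not in 18, in 7 and not in 3 for Ly6a in macrophage-like cells between the stages, and in all 10 for the lymphatic interaction. The Alk1 KO cases include the 4 pairs that passed the filter only through 1 group. Those pairs carry no test, so their cases lend no support. Of the named differences below the threshold, those near 0 changed sign in 10 cases, all for Alk1 KO. Ly6c1 in Cap-Kdr-like cells was 0.0675 with stricter cells, 0.24 with marker scores and -0.32 to 0.22 with 1 library left out, above 0 without WT telogen S1 or Alk1 KO S2. Ly6c1 in Cap-Rgcc-like cells was -0.083 to 0.14 with 1 library left out, below 0 without WT telogen S2 or Alk1 KO S2. Ly6e in Lymph-Cap-like cells was -0.011 with stricter cells and -0.34 to 0.42 with 1 library left out, below 0 without WT telogen S1 or Alk1 KO S1. Ly6e in Lymph-Col-like cells was -0.075 without Alk1 KO S1 and 0.51 without Alk1 KO S2, where it passed the threshold (edgeR adjusted p = 0.017). Between the stages, Ly6a and Ly6c1 in artery-like cells passed without anagen S1 (adjusted p = 0.017 and 0.026, edgeR), without anagen S2 (0.047 and 0.024) and without a filter on low counts, and Ly6c1 in vein-like cells passed with DESeq2 (adjusted p = 0.042) and without that filter. The counts that follow are over all pairs that passed the filter. Stage calls among members (1 of 32) became 2 with DESeq2, 11 without a filter on low counts, 0 with all 6 libraries in one fit, 0 without the highest Scrublet scores, 15 with cells assigned by marker scores, and 2 to 7 with 1 library left out. Stage calls over all genes (655) became 5174 without the filter, 409 with all libraries in one fit, 436 with stricter cells (at least 500 genes and under 5% mitochondrial UMIs), 371 without the highest Scrublet scores, 4256 with marker scores and 486 to 4895 with 1 library left out (4348 without anagen S1 and 4895 without anagen S2). The cause was not tested. Calls of members in Alk1 KO (19 of 30) stayed between 14 and 24, while those over all genes (17696) became 9840 with DESeq2 and 9528 to 19511 with 1 library left out, lowest without either WT telogen library (9528 and 9547). Interaction calls among members (1 of 4) became 2 with marker scores and 1 to 2 with 1 library left out, and over all genes (2359) 741 with DESeq2 and 1401 to 2155 with 1 library left out. Where a group was left with 1 library, that library was assumed to vary like the others. The numbers S1 and S2 are shared by the groups but nothing ties them to a batch or litter, and same-numbered libraries deviated together with correlations between -0.16 and 0.23 over populations. A replicate block gave 1 stage call and 21 Alk1 KO calls among members, and 569 and 18353 over all genes, and a log2 difference of 3.27 for Ly6a in Lymph-Col-like cells between the stages. Without the 5% of cells outside the blood ECs richest in blood EC markers, chosen after seeing the data, 16 of 28 Alk1 KO pairs were called. Depth limits Ly6c2 and the lymphatic values of Ly6a and Ly6c1, which rest on few UMIs.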
